A study of Mus musculus with 2 samples.

Results

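The hepatocyte identity transcription factors described here are 9 genes, taken by symbol from the 31053 genes of a single-cell RNA table: Hnf4a, Foxa2, Foxa3, Prox1, Cebpa, Cebpb, Nr1i3, Nr1h4 and Ppara. All 9 were in the table and all 9 passed the filter on low counts. They were examined in 2559 of 13151 cell barcodes, those that held at least 10000 unique molecular identifiers (UMIs, counted RNA molecules) and in which Alb, Apoa1, Apoa2, Ttr and Fgb, which encode secreted plasma proteins, together made up at least 1% of gene UMIs. These barcodes are called deep hepatocytes. The cells came from 3 young adult female BL6 mice, killed on day 6 after hydrodynamic tail-vein injection (HDTV), a rapid large-volume injection that carries plasmid into part of the hepatocytes. Every mouse received a Sleeping Beauty transposase plasmid together with a transposon carrying mVenus, a yellow fluorescent protein, and mutant NRAS under the ubiquitous CAGGS promoter. The insert was NRAS(G12V), a constitutively active form, in 2 mice and NRAS(G12V/D38A), with a further change in the effector loop, in 1 control. No uninjected mouse was included. Cells were labelled per mouse with a hashtag antibody, sorted for viability and mVenus, and pooled.

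The liver factors form a network of mutual regulation. HNF4A is a nuclear receptor that binds as a homodimer and maintains much of the hepatocyte programme, FOXA2 and FOXA3 are forkhead factors able to bind in closed chromatin, and PROX1 is a homeobox protein needed in liver development. CEBPA and CEBPB are leucine zipper proteins of 1 family, the former tied to quiescent, metabolically active hepatocytes and the latter also to the acute phase and regeneration, while NR1I3 (CAR), NR1H4 (FXR) and PPARA pair with RXR and govern responses to xenobiotics, bile acids and fatty acids.

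The question put to these cells was how hepatocyte state varied with the dose of RAS. The dose was read from the mouse Nras row of the table, which took up construct reads and reached 1427 UMIs in a barcode. Deep hepatocytes were classed as baseline (under 300 Nras UMIs in 1000000 gene UMIs, 1947 cells), low (300 to under 1000, 285 cells), intermediate (1000 to under 3000, 185 cells) and high (3000 or more, 142 cells). The share of cells with a UMI of mVenus, which lies on the same construct, was 17.1% in baseline, 79.6% in low, 93.5% in intermediate and 99.3% in high cells. Hashtag 1 held 211 baseline, 40 low, 25 intermediate and 25 high cells, and hashtag 2 held 926, 144, 96 and 73. Hashtag 3 held 25 deep hepatocytes, 21 of them baseline, so that the contrasts between classes rest on the mice of hashtags 1 and 2. A further 906 deep hepatocytes had no hashtag called and are shown beside the tagged cells without entering a test. The counts per mouse depended on the calling rule. Under the fixed rule used as an alternative below, hashtag 1 held 473 baseline, 66 low, 44 intermediate and 42 high cells. Hashtag 2 then held 335, 48, 37 and 29. Whether each sum holds cells of 1 mouse only was not tested.

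Several properties of the libraries moved with the classes. The median depth was 33328 in baseline, 46264 in low, 59323 in intermediate and 51795 in high cells, and the median mitochondrial share lay between 7.99% and 8.92%. The genes of the hepatocyte gate had a median share of 7.04% in baseline, 5.17% in low, 3.74% in intermediate and 3.43% in high cells. The cell nearest the gate inside it held 1.0% and the nearest outside 0.997%. The 7 bile duct markers together made up 0.376% of UMIs in baseline and 1.75% in high cells, with most of it from Spp1 (3256 and 16190.1 counts in 1000000 gene UMIs). Of the others, Tspan8 stood at 418 in baseline and 1279 in high cells, Sox9 at 83.3 and 152, Epcam at 1.23 and 7.13 and Cldn7 at 2.1 and 2.29. The duct keratin Krt19 stood at 0.669 in baseline, 7.46 in low, 0.289 in intermediate and 0 in high cells, and Krt7 at 0.312 in baseline and 0.134 in high cells. Stellate markers went from 0.0126% to 0.0575%, plasmacytoid dendritic markers lay between 0.0319% and 0.0346%, and no other list reached 0.00693% in a class except the mature dendritic list, which stood at that value in baseline cells. The part of these markers and of depth in the results was not tested beyond the alternatives given beside them.

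Levels are given as counts per 1000000 gene UMIs (CPM), with Nras and mVenus left out of the total, and the ranges in brackets are 95% exact Poisson limits, which cover counting error only. Tests used edgeR's quasi-likelihood test on UMIs summed per mouse and class (9 sums, the mouse as a block), with Benjamini-Hochberg adjustment over 10595 genes, and SE is the standard error of the fitted log2 fold change. In high against baseline cells, Cebpa, Nr1i3, Nr1h4 and Ppara fell, 5 factors did not pass the test and 0 rose. At an unadjusted p under 0.05 edgeR had 5 lower and 0 higher, and DESeq2 called 4 lower and 0 higher, where 17.9% lower and 18.4% higher of all genes were found by the former and 6.77% lower and 6.74% higher by the latter. Of all genes tested, 12.7% were called lower and 12.8% higher in this comparison. The median log2 fold change was -0.41 over the 9 factors and -0.022 over all genes. With 2 mice carrying the contrast and the mouse as a block, differences in level between mice are removed. This holds only as far as the hashtag calls place cells in the right mouse. The p-values rest on how far the class differences varied between these 2 mice, with a spread moderated over all genes. They do not cover a wider set of mice.

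The sequence before the annotated start is shown for the 4 factors that fell together. Each run is the 250 bases upstream of a RefSeq start on GRCm38.p6, 5′ to 3′ on the strand of the gene, and capitals mark a match to a searched motif.
Cebpa, chr7:35119043-35119292, plus strand: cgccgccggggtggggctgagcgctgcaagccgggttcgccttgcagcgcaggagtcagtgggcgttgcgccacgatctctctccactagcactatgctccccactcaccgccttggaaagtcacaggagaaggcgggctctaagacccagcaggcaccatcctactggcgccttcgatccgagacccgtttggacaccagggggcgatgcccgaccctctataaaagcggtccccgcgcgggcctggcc
Nr1i3, chr1:171213720-171213969, plus strand: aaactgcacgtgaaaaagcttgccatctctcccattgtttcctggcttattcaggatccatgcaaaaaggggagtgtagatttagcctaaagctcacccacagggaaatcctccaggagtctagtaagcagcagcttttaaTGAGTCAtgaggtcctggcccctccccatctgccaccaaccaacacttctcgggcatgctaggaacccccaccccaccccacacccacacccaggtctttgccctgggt
Nr1h4, chr10:89506659-89506908, minus strand: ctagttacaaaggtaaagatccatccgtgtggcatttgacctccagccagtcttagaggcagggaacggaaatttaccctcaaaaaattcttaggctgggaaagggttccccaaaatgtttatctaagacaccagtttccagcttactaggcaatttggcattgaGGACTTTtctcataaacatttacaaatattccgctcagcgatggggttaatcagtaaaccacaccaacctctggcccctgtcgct
Ppara, chr15:85735526-85735775, plus strand: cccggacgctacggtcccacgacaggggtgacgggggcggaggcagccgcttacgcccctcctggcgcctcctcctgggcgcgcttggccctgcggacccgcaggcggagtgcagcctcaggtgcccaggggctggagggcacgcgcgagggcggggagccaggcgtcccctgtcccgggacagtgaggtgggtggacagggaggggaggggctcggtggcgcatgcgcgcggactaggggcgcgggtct
Motifs searched on both strands included TTGCNNAA (C/EBP), AAAGTCC (HNF4), TGTTTAC (forkhead), TGANTCA (AP-1) and CCGGAAG (ETS). Of 32851 mouse windows of this length, 9.56% held the C/EBP motif, 3.58% HNF4, 3.17% forkhead, 6.75% AP-1 and 6.91% ETS. Nr1i3 held an AP-1 match starting at position -109, where -1 is the base before the start, and Nr1h4 held an HNF4 match starting at -85, read on the opposite strand. None of these letters was found in the other 11 windows of the 9 genes, 3 of which have more than 1 start in the table. The G+C content was 44.4% for Nr1h4 with 5 CpG, 53.2% for Nr1i3 with 2, 66.4% for Cebpa with 22 and 76.4% for Ppara with 27, against medians of 52.4% and 6 over all windows. The RefSeq starts of Nr1h4 and Ppara lie inside the span of the gene in the other annotation used here. The assay counts 3′ ends and cannot tell which start a transcript used.

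Of the C/EBP pair, Cebpa fell and Cebpb did not pass the test. Cebpa (ENSMUSG00000034957, chromosome 7, 35119293-35121928, plus strand, GENCODE M21 on GRCm38, as for all positions below) stood at 121 (113 to 130.2) CPM in baseline, 89 (75.8 to 104) in low, 62.4 (50.6 to 76.1) in intermediate and 43.6 (32.6 to 57) in high cells of hashtag 1. In hashtag 2 it stood at 151 (147 to 155), 93.7 (86.8 to 101), 68.5 (62.1 to 75.4) and 52.3 (45.7 to 59.6). Baseline cells of hashtag 3 held 138 (106 to 176), and every low, intermediate and high sum lay below every baseline sum. Untagged cells held 135, 80.7, 58.2 and 58.8 CPM, lower in each of the 3 upper classes than in baseline. The level in high cells was 35.9% (26.7% to 47.5%) of baseline in hashtag 1 and 34.6% (30.1% to 39.5%) in hashtag 2, with exact intervals. The fitted log2 fold change was -1.53 (SE 0.12, edgeR adjusted p = 1.07e-05), and the call was kept in 19 of 19 alternatives with a test.

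Cebpb (ENSMUSG00000056501, chromosome 2, 167688915-167690418, plus strand) was near its baseline level in high cells of hashtag 1 and below it in those of hashtag 2. In hashtag 1 it stood at 306 (293 to 319.9), 361 (334 to 390), 368 (339 to 399.8) and 302 (272 to 334) CPM from baseline to high, with low and intermediate cells above baseline beyond counting error. In hashtag 2 it stood at 380.4 (374 to 387), 319.6 (307 to 333), 252 (239 to 264) and 247 (232 to 262), lower in each upper class beyond counting error. Baseline cells of hashtag 3 held 247 (203 to 297), and untagged cells held 364 in baseline and 339.6 in high cells. In edgeR the log2 fold change was -0.37 (SE 0.17, adjusted p = 0.149), and 2 of 19 alternatives called it lower. The slope was -0.002 log2 units per class step in hashtag 1 and -0.238 in hashtag 2, a difference that did not pass in edgeR (unadjusted p = 0.0177, adjusted p = 0.591). None of the 9 slopes differed between the mice after adjustment, with Cebpb the 1 factor under an unadjusted p of 0.05, and 0.0187% of all genes were called in that test, which was not run in DESeq2.

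The ratio of Cebpa to Cebpb UMIs within a sum does not depend on the scaling between sums. It was 0.396 (0.364 to 0.431) in baseline and 0.144 (0.106 to 0.193) in high cells of hashtag 1, with exact intervals, and 0.398 (0.386 to 0.411) and 0.212 (0.183 to 0.245) in hashtag 2. Untagged cells gave 0.371 (0.355 to 0.387) and 0.173 (0.138 to 0.216), and the baseline cells of hashtag 3 gave 0.558 (0.403 to 0.765). The intervals of baseline and high cells were apart in both mice and in untagged cells, and no test over mice was made of the ratio.

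**Figure D1:**
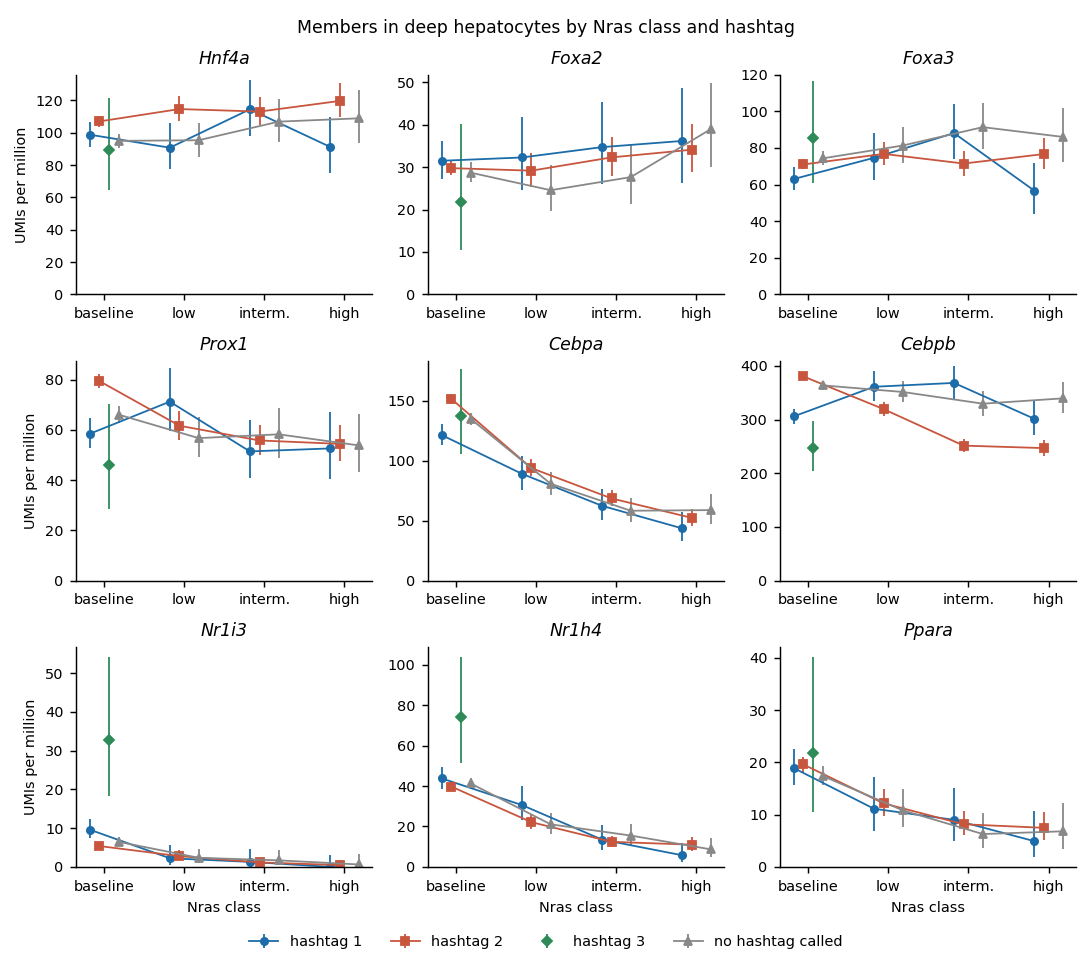
CPM (y axes, from 0) of each factor by Nras class (x axes) in deep hepatocytes. Each point is a sum over the cells of a hashtag or over cells with no hashtag called, and bars are 95% exact Poisson limits. Cebpa, Nr1i3, Nr1h4 and Ppara are lower in high than in baseline cells in hashtags 1 and 2 and in untagged cells, hashtag 3 has a point in baseline only, and Hnf4a in hashtag 2 stands at 107 in baseline and 119.6 in high cells.

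All 3 nuclear receptors of the RXR-pairing kind fell. Nr1h4 (ENSMUSG00000047638, chromosome 10, 89454234-89533585, minus strand), the bile acid receptor, stood at 43.8 (38.8 to 49.2), 30.6 (23.1 to 39.8), 13.5 (8.36 to 20.6) and 5.75 (2.31 to 11.9) CPM from baseline to high in hashtag 1. In hashtag 2 it stood at 39.7 (37.7 to 41.8), 22.1 (18.8 to 25.8), 12.4 (9.77 to 15.5) and 11 (8.07 to 14.6), and untagged cells went from 41.3 to 8.66. Baseline cells of hashtag 3 were the highest at 74.2 (51.4 to 104), and the baseline sums did not overlap with those of any other class. The level in high cells was 13.1% (5.24% to 27.4%) of baseline in hashtag 1 and 27.6% (20.2% to 36.9%) in hashtag 2. The fitted log2 fold change was -2.11 (SE 0.22, edgeR adjusted p = 5.41e-05), a call kept in 19 of 19 alternatives.

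Ppara (ENSMUSG00000022383, chromosome 15, 85734983-85802819, plus strand), the receptor for fatty acids, stood at 18.9 (15.7 to 22.6), 11.1 (6.8 to 17.2), 9.0 (4.92 to 15.1) and 4.93 (1.81 to 10.7) CPM in hashtag 1. In hashtag 2 the levels were 19.6 (18.2 to 21.1), 12.2 (9.76 to 15), 8.16 (6.05 to 10.8) and 7.48 (5.11 to 10.6). The baseline sums, with hashtag 3 at 21.8 (10.5 to 40.2), lay above all others, and untagged cells went from 17.4 to 6.8. The fitted log2 fold change was -1.55 (SE 0.22, edgeR adjusted p = 0.000397). The call was lost without the cells in which markers of other types exceeded 0.5% of UMIs (-0.95, edgeR adjusted p = 0.155), which left 6 and 14 high cells in hashtags 1 and 2. With the bile duct list, and so Spp1, left out of that sum the value was -1.53 (edgeR adjusted p = 0.000313).

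Nr1i3 (ENSMUSG00000005677, chromosome 1, 171213970-171220701, plus strand), the xenobiotic receptor CAR, rested on few UMIs. Hashtag 1 had 61 UMIs in baseline cells, or 9.61 (7.35 to 12.3) CPM, and 0 in high cells, which allows up to 2.47 CPM by a limit of 3 UMIs and 3.03 by the exact Poisson limit. Hashtag 2 had 200 UMIs in baseline cells, or 5.38 (4.66 to 6.18) CPM, and 2 in high cells, 8.69% (1.05% to 31.8%) of baseline. The low and intermediate levels were 2.23 and 1.29 CPM in hashtag 1 and 2.76 and 1.14 in hashtag 2, below baseline in both mice. Baseline cells of hashtag 3 stood apart at 32.8 (18.3 to 54), from 15 UMIs. The fitted log2 fold change was -4.13 (SE 0.65, edgeR adjusted p = 0.000898), whose size depends on the prior count. Its level also fell with depth in baseline cells alone, and it could not be tested after thinning, as given below. The part of depth in this fall was not tested.

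Of the HNF4A, FOXA and PROX1 group none passed the test. Hnf4a (ENSMUSG00000017950, chromosome 2, 163506808-163572910, plus strand) stood at 98.8 (91.2 to 107), 90.7 (77.3 to 106), 114 (98.2 to 133) and 91.2 (75.1 to 109.9) CPM in hashtag 1. In hashtag 2 it stood at 107 (104 to 110.3), 115 (107 to 123), 113 (105 to 122) and 119.6 (109 to 130.4), and in baseline cells of hashtag 3 at 89.5 (64.3 to 121). The classes overlapped. The level in high cells was 92.4% (74.8% to 113%) of baseline in hashtag 1 and 112% (102% to 123%) in hashtag 2, where it lay above baseline beyond counting error. The fitted log2 fold change was 0.022 (SE 0.13, edgeR adjusted p = 0.946), which does not show that the levels were equal.

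Foxa2 (ENSMUSG00000037025, chromosome 2, 148042877-148046969, minus strand) stood at 31.5 (27.3 to 36.2) CPM in baseline, 32.3 in low, 34.7 in intermediate and 36.2 (26.3 to 48.6) in high cells of hashtag 1. In hashtag 2 it stood at 29.8 (28 to 31.6), 29.2, 32.3 and 34.1 (28.8 to 40.1), and baseline cells of hashtag 3 held 21.8 (10.5 to 40.2). High cells were 115% (80.9% to 159.8%) and 115% (95.8% to 136%) of baseline, and the fitted difference was 0.17 (SE 0.13, edgeR adjusted p = 0.37). The intervals of baseline and high cells overlapped in both mice.

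Foxa3 (ENSMUSG00000040891, chromosome 7, 19013284-19023538, minus strand) stood at 63 (57 to 69.5), 74.6, 88.1 and 56.7 (44.1 to 71.8) CPM in hashtag 1 and at 70.9 (68.3 to 73.7), 76.7, 71.4 and 76.6 (68.6 to 85.4) in hashtag 2, with 85.2 (60.6 to 116) in baseline cells of hashtag 3. High cells were 90% (68.7% to 117%) and 108% (96% to 121%) of baseline, and the fitted difference was 0.00 (SE 0.15, edgeR adjusted p = 0.993). The mice lay on opposite sides of their baseline by less than counting error.

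Prox1 (ENSMUSG00000010175, chromosome 1, 190118035-190170714, minus strand) stood at 58.4 (52.6 to 64.7), 71.2, 51.4 and 52.6 (40.5 to 67.2) CPM in hashtag 1 and at 79.4 (76.6 to 82.4), 61.6, 55.8 and 54.4 (47.7 to 61.9) in hashtag 2. Baseline cells of hashtag 3 held 45.9 (28.4 to 70.1). High cells were 90% (67.9% to 118%) of baseline in hashtag 1 and 68.5% (59.7% to 78.3%) in hashtag 2, apart from baseline in hashtag 2 but not in hashtag 1. In edgeR the log2 fold change was -0.41 (SE 0.16, adjusted p = 0.0791), and 4 of 19 alternatives called it lower.

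**Figure D2:**
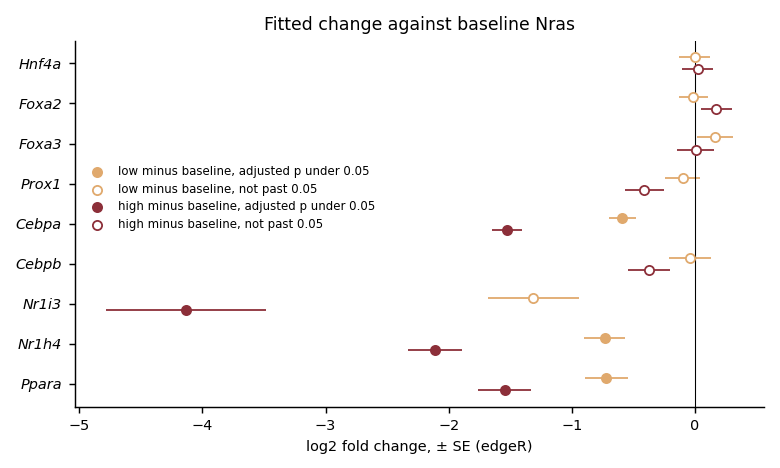
Fitted log2 fold changes from edgeR (x axis, points with bars of 1 SE) of low and of high against baseline cells for each factor (y axis), filled where the adjusted p was under 0.05. Cebpa, Nr1h4 and Ppara are filled in both contrasts, at -0.59, -0.74 and -0.72 in low cells, and Nr1i3 in the high contrast only, at -4.13.

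In low against baseline cells Cebpa, Nr1h4 and Ppara were already lower. Their log2 fold changes in edgeR were -0.59 (SE 0.11, adjusted p = 0.0118), -0.74 (SE 0.17, adjusted p = 0.0304) and -0.72 (SE 0.18, adjusted p = 0.0385). Nr1i3 had -1.31 (SE 0.37, edgeR adjusted p = 0.0696) and did not pass. Thus 3 of 9 were lower and 0 higher, where 2.84% of all genes were lower and 2.98% higher. At an unadjusted p under 0.05 edgeR had 4 lower and 0 higher, and DESeq2 called 1 lower, Cebpa, and 0 higher. The shares of all genes were 8.82% lower and 8.66% higher unadjusted and 2.24% lower and 2.47% higher by DESeq2. Without the mouse as a block the edgeR adjusted p was 0.0937 for Cebpa, 0.0869 for Nr1h4 and 0.0825 for Ppara. Without hashtag 1 none of the 3 passed, at log2 fold changes of -1.19, -1.14 and -0.70, nor without hashtag 2, at -0.87, -0.73 and -0.73, in fits that rest in part on single cells of hashtag 3. Without cells over 0.5% of other markers the values were -0.23, -0.36 and -0.23 and none passed. Over all alternatives with a test the call held in 12 of 18 for Cebpa, 11 of 18 for Nr1h4 and 10 of 18 for Ppara.

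No factor passed a single step higher up the range, by edgeR or DESeq2. From low to intermediate the log2 fold change in edgeR was -0.49 for Cebpa (SE 0.12, adjusted p = 0.0963), -0.97 for Nr1h4 (SE 0.22, adjusted p = 0.0721) and -0.51 for Ppara (SE 0.22, adjusted p = 0.374). Cebpa and Nr1h4 each passed that step in 2 of 18 alternatives. After adjustment 0.444% of all genes were called higher and 0.708% lower, and 1.36% lower and 0.970% higher by DESeq2. At an unadjusted p under 0.05, 3 of 9 factors were lower and 0 higher, against 7.08% lower and 5.34% higher of all genes. From intermediate to high 1 factor was lower unadjusted and 0 higher, against 4.03% lower and 1.97% higher of all genes, with -0.45 for Cebpa (SE 0.13, edgeR adjusted p = 0.562), and 0% of all genes were called higher and 0.00944% lower. Over all genes in that last step edgeR had 636 at an unadjusted p under 0.05 in either direction and DESeq2 called 19, or 0.362% lower and 0% higher.

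Finer bins over all deep hepatocytes, pooled over mice and with counting error only, showed where the levels lay. Cebpa stood at 149.6 (145 to 155) CPM in the 702 cells under 30 Nras CPM, 147 (143 to 152) from 30, 129 (124 to 134) from 100 and 94.4 (87.4 to 102) from 300. Further up it stood at 82.7 (75.4 to 90.5) from 600, 64.1 (57.8 to 70.9) from 1000, 65.9 (58.6 to 73.8) from 1700, 57.1 (50.3 to 64.5) from 3000 and 44 (36.7 to 52.3) in the 57 cells at 6000 or more. The level was already lower from 100 than in the first bin, inside the baseline class, and neighbouring bins from 600 upwards overlapped except those on either side of 1000. Nr1h4 stood at 45.1 (42.3 to 48) in the first bin, 35.5 (32.9 to 38.3) from 100, 13.4 (10.6 to 16.7) from 1000 and 9.89 (6.62 to 14.2) in the last. Ppara stood at 21.5 (19.6 to 23.5), 16 (14.2 to 17.9), 7.46 (5.42 to 10) and 5.8 (3.38 to 9.28) in the same bins. Over these 4 bins both fell in the same order as Cebpa, whereas Hnf4a stood at 100.5 (96.3 to 105) in the first and 121 (109 to 134) in the last bin and Foxa2 at 26 (23.9 to 28.2) and 41.9 (34.9 to 50).

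**Figure D3:**
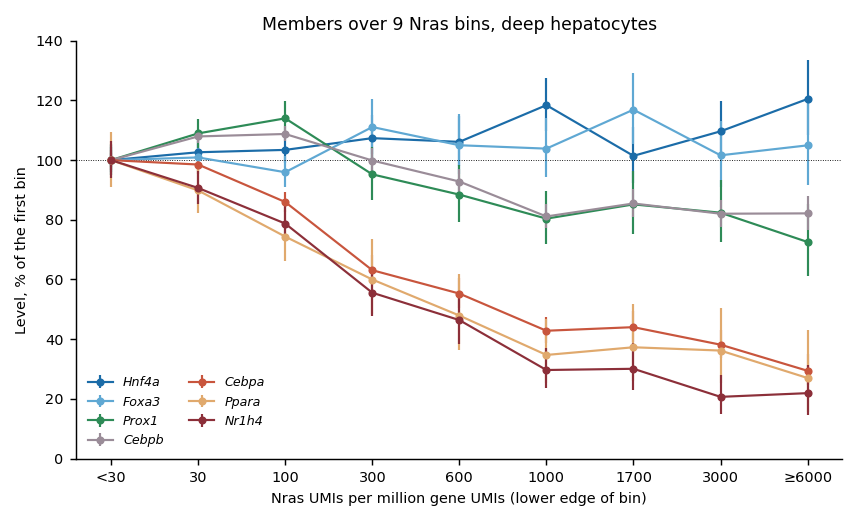
Level of 7 factors as a percentage of the first bin (y axis, from 0) over 9 bins of Nras CPM (x axis, lower edges) in all deep hepatocytes, with 95% exact Poisson limits of each bin. In the last bin Cebpa stands at 29.4%, Ppara at 27% and Nr1h4 at 21.9%, with Hnf4a at 120.5% and Foxa3 at 105%.

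Shares of cells with a UMI were compared after thinning each cell to 10000 UMIs. Cebpa was found in 69.9% (67.8% to 71.9%) of baseline and 42.3% (34% to 50.8%) of high cells, with exact binomial intervals, against 89.5% and 82.4% before thinning. Nr1h4 was found in 31.7% (29.7% to 33.9%) and 7.04% (3.43% to 12.6%), against 62.8% and 33.8%. Ppara was found in 17.5% (15.8% to 19.2%) and 4.93% (2.01% to 9.89%), against 41.6% and 26.1%. Hnf4a was found in 57.8% (55.6% to 60%) and 65.5% (57.1% to 73.3%), intervals that overlap, against 84.2% and 96.5%. As a background, 142 barcodes of other gated cell types with 10000 or more UMIs (median 12014) were thinned alike, and 18.3% of them held Cebpa, 9.16% Nr1h4, 4.23% Ppara and 16.9% Hnf4a. The shares of Nr1h4 and Ppara in high cells did not differ from this background beyond counting error. Nr1i3 was found in 7.35% (6.23% to 8.6%) of baseline cells and 6.34% (2.94% to 11.7%) of the other types, a share at background already in baseline cells. It was found in 0 of 142 high cells, which allows a share of cells with a UMI of up to 2.11% by a limit of 3 cells and 2.56% by the exact binomial limit, and before thinning in 13.5% of baseline and 2.82% of high cells.

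Within the baseline class the levels of several factors moved with depth, Nr1i3 over the whole range. It stood at 19.3 (16.4 to 22.7) CPM in cells of 10000 to under 20000 UMIs, 7.16 (6.04 to 8.42) from 20000 and 3.64 (3.05 to 4.31) from 40000. In the same 3 ranges Hnf4a stood at 93.9, 108 and 101, Cebpa at 145, 160.2 and 136, Nr1h4 at 45.4, 44.5 and 38.6, and Ppara at 22.8, 18.1 and 19.2. In the 25 baseline cells of 80000 or more UMIs Cebpa stood at 92.4 (80.3 to 106), Nr1h4 at 26.7 (20.3 to 34.3), Ppara at 12.4 (8.27 to 18) and Nr1i3 at 2.67 (0.979 to 5.8), each lower than in the first range beyond counting error, and Hnf4a at 97.3 (84.9 to 111). Barcodes with 1000 to under 10000 UMIs that passed the hepatocyte gate at baseline Nras (5538, median gate share 2.27%) held Nr1i3 at 53.5 (50.3 to 56.9) and Cebpa at 191 (185 to 198). The 650 of them with a gate share of at least 5% held 18.8 (14.3 to 24.3) and 117 (105 to 129.6). With every cell thinned to 10000 UMIs before the sums, Cebpa, Nr1h4 and Ppara passed in high against baseline cells by edgeR (log2 fold changes -1.61, -2.13 and -2.47), while Nr1i3 no longer reached the filter on low counts.

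Beside the 9, 33 other liver factors were listed, of which 31 were tested. In high against baseline cells 16 fell, 15 did not pass and 0 rose by edgeR, with a median log2 fold change of -0.66. At an unadjusted p under 0.05, 19 were lower and 1 higher, and DESeq2 called 12 lower and 0 higher. Of all genes, 12.7% were lower and 12.8% higher by edgeR. The shares were 17.9% and 18.4% unadjusted and 6.77% and 6.74% by DESeq2. The same shares stand beside the counts of the target lists below. All lists were chosen with earlier results of these data known, so that their counts are a description and not independent support. The largest falls were those of Onecut1, a cut-homeobox factor of liver development (-2.78, SE 0.39), Nr0b2, the small heterodimer partner (-2.13, SE 0.27), Creb3l3, a membrane-bound factor active in fasting (-1.67, SE 0.19), Klf15 (-1.49, SE 0.20) and Nr1i2, the receptor PXR (-1.49, SE 0.26). Hhex, a homeobox factor of early liver development, did not pass (-0.086, SE 0.14).

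Genes known as targets of the factors are described by list, without a claim that the factor acted on them here. The lists share genes, so that their counts are not separate falls. Tat and Pck1 are in the C/EBP and the FOXA list, and Cyp3a11 is in the FOXA and the CAR and PXR list. Nr0b2 is among the other liver factors and the FXR targets. Of 10 C/EBP targets 8 fell, 2 did not pass and 0 rose, with a median of -3.53. The largest were Saa1 (-6.03, SE 0.69), Orm2 (-5.52, SE 1.54) and Orm1 (-3.63, SE 0.47), acute phase genes with near-identical copies between which reads may be split, Tat, which breaks down tyrosine (-4.45, SE 0.37), and Pck1 of gluconeogenesis (-3.72, SE 0.38). Saa1 and Orm2 each stood at 0 CPM in high cells of hashtag 1 and 0.234 in those of hashtag 2. The size of these falls depends on the prior count. Of 10 HNF4A targets 9 were tested, of which 6 fell, 3 did not pass and 0 rose, with a median of -0.79. They were led by G6pc, the last enzyme of glucose release (-4.11, SE 0.60), Otc of the urea cycle (-3.39, SE 0.23), Apoc3 (-2.54, SE 0.29) and the clotting factor F9 (-1.27, SE 0.24). Of 7 FOXA targets 4 fell, 2 did not pass and 1 rose, Igfbp1, a secreted binding protein of insulin-like growth factors (1.73, SE 0.13), with levels of 876 CPM in baseline and 3343 in high cells of hashtag 1, and 1048 and 3162 in those of hashtag 2.

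Among targets of the nuclear receptors, 6 of 8 FXR targets were tested, of which 5 fell, 1 did not pass and 0 rose, with a median of -2.34. They included Slc27a5 (-3.20, SE 0.33) and Baat (-2.56, SE 0.18), which conjugate bile acids, and Abcb11, the bile salt export pump (-2.76, SE 0.30). Of 8 CAR and PXR targets 6 were tested, of which 4 fell, 2 did not pass and 0 rose, with a median of -2.04. The cytochromes Cyp2c55 (-4.72, SE 0.90) and Cyp3a11 (-4.72, SE 0.76) fell most, both of multigene families between which reads may be split. Cyp2c55 stood at 0.822 CPM in high cells of hashtag 1 and 0 in those of hashtag 2, so that the size of its fall depends on the prior count. Of 16 PPARA targets 13 were tested, of which 10 fell, 2 did not pass and 1 rose, with a median of -1.52. Fabp1, a fatty acid carrier, fell (-2.60, SE 0.35), whereas Angptl4, an inhibitor of lipoprotein lipase, rose (3.07, SE 0.24), with levels of 21.6 CPM in baseline and 236 in high cells of hashtag 1, and 19.8 and 133 in those of hashtag 2.

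Where a target list had 0 higher, 0 were also higher at an unadjusted p under 0.05 in edgeR and by DESeq2. For comparison, 10 genes induced by ERK signalling downstream of RAS had 6 higher, 4 that did not pass and 0 lower, with 0 lower unadjusted and by DESeq2, led by Fosl1 (3.37, SE 0.29), Etv4 (2.22, SE 0.22) and Spry2 (1.81, SE 0.29). Without cells over 0.5% of other markers 2 of the 9 factors, Cebpa and Nr1h4, were lower of 8 tested, where 4.75% of all genes were called lower and 1.83% higher, beside 1 of 24 other liver factors, 2 of 8 HNF4A, 8 of 8 C/EBP, 4 of 6 FXR, 1 of 4 CAR and PXR and 3 of 12 PPARA targets. Nr1i3 was the factor not tested there. Angptl4 was not called there, with 0 PPARA targets higher by edgeR, also at an unadjusted p under 0.05, in a setting not run in DESeq2. Of 7 FOXA targets 4 were lower and 1 higher, and of 7 ERK genes 1 was higher. With the bile duct list left out of that sum the counts of lower and of higher genes equalled those in all cells in each list.

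**Figure D4:**
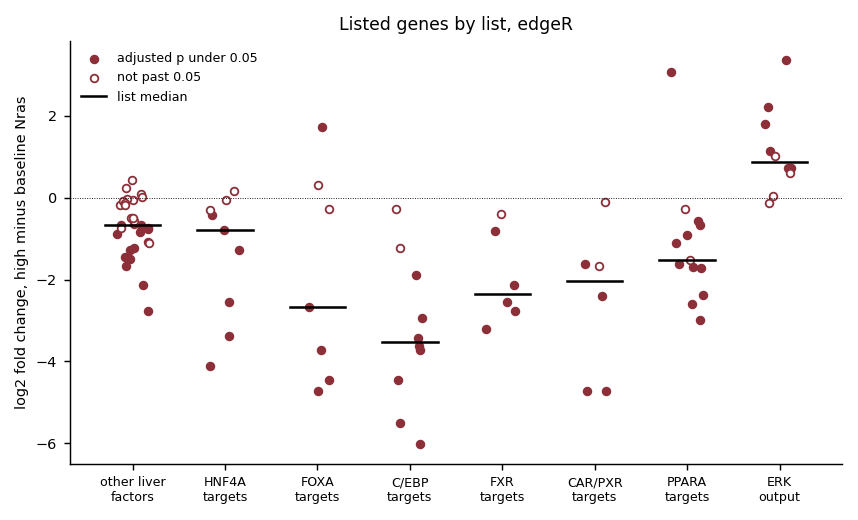
Fitted log2 fold change of high against baseline cells (y axis, edgeR) for each tested gene of each list (x axis), filled where the adjusted p was under 0.05, with lines at the list medians. The C/EBP list has the lowest median, -3.53, the ERK list stands at 0.88, and Angptl4 at 3.07 lies above the other PPARA targets.

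Likeness of pattern was described by Pearson's r of log2(CPM + 1) with each of 8373 genes over the 9 sums, which share mice and depth, and without a test. Cebpa was nearest to Mgst1 (0.994) and Akr1c20 (0.991), Cebpb to C1rl (0.953) and Slc35g1 (0.948), Nr1h4 to Pygl (0.992) and Pid1 (0.989), Nr1i3 to Gstp3 (0.995) and Epb41l5 (0.989) and Ppara to D230025D16Rik (0.992) and Cyp2d40 (0.992). Hnf4a was nearest to Mettl21a (0.953) and Prrc1 (0.919), Foxa2 to Chmp1a (0.992) and Rnaseh1 (0.971), Foxa3 to Mettl3 (0.932) and Ube4b (0.921) and Prox1 to Srebf1 (0.95) and Cfb (0.939).

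The factors were also set against 1347 barcodes of other cell types, rebuilt here from marker genes, of which 793 were endothelial-like and 280 mature dendritic-like. Their median depth was 3875 UMIs, against 36930 in deep hepatocytes, and a median of 0.571% of their UMIs came from the genes of the hepatocyte gate, so that their levels are upper limits. In edgeR over sums per mouse 8 of the 9 factors were higher in hepatocytes and 0 lower, where 14.9% of all genes were higher and 20.6% lower. No factor was lower at an unadjusted p under 0.05, against 26.2% of all genes, and DESeq2 was not run here. Hnf4a stood at 98.8, 109.6 and 112 CPM in hepatocytes of hashtags 1, 2 and 3 and at 23.9, 8.07 and 30.7 in the other types, a log2 difference of 2.57 (SE 0.39, edgeR adjusted p = 0.00859). The log2 difference was 3.09 (SE 0.31, edgeR adjusted p = 0.00372) for Foxa2, 3.08 (SE 0.63, edgeR adjusted p = 0.0186) for Foxa3 and 3.05 (SE 0.26, edgeR adjusted p = 0.00298) for Prox1.

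The C/EBP factors, Nr1h4 and Ppara were also called higher in hepatocytes. Cebpa stood at 98.9, 127 and 112 CPM in hepatocytes and at 34.1, 25.1 and 50.2 in the other types, a log2 difference of 1.73 (SE 0.27, edgeR adjusted p = 0.0086), and reached 131 (94.3 to 177) in 52 macrophage-like barcodes. Cebpb differed by 0.98 (SE 0.25, edgeR adjusted p = 0.0329) and reached 3602 (3059 to 4213) in 19 neutrophil-like and 926 (823 to 1037) in macrophage-like barcodes, above its hepatocyte level of 346 (342 to 349.5). Nr1h4 differed by 1.91 (SE 0.28, edgeR adjusted p = 0.00789) and Ppara by 1.55 (SE 0.40, edgeR adjusted p = 0.034). In 16 stellate-like barcodes Nr1h4 reached 93.4 (37.6 to 192.5) CPM, from 7 UMIs, above its hepatocyte level of 33.2 (32 to 34.3). The calls of Cebpb and Ppara were lost without hashtag 1 (1.07 and 1.90), without hashtag 2 (0.83 and 1.13) and with library size scaling, and that of Cebpb also without the mouse as a block (edgeR adjusted p = 0.0534). Nr1i3 did not pass, at -0.20 (SE 0.49, edgeR adjusted p = 0.781), with 6.14, 4.18 and 24.6 CPM in hepatocytes and 13, 4.48 and 17 in the other types.

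**Figure D5:**
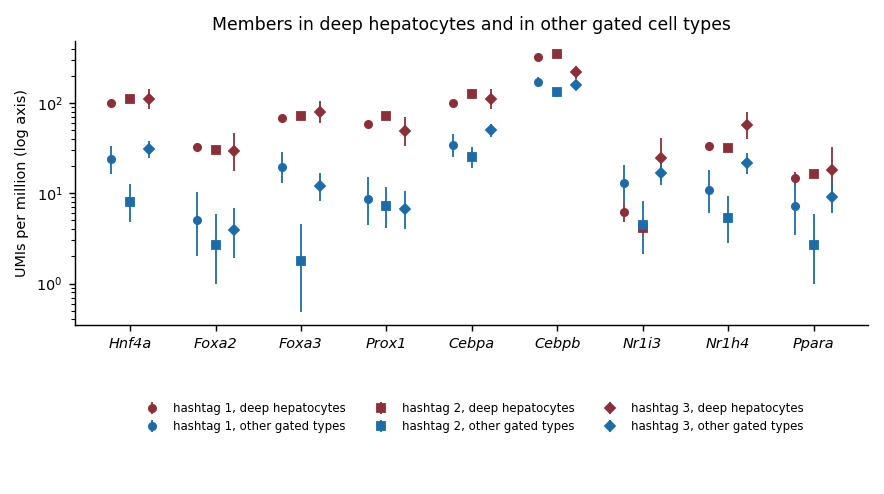
CPM (y axis, logarithmic) of each factor (x axis) in deep hepatocytes and in all other gated cell types together, for each hashtag, with 95% exact Poisson limits. Hnf4a, Foxa2, Foxa3 and Prox1 are separated in all 3 mice, and Nr1i3 in hashtag 2 stands at 4.18 in hepatocytes and 4.48 in the other types.

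G12V and D38A mice were not compared by a test, since there was 1 D38A mouse and its hashtag was in doubt: the deposited table gives hashtag 1 to that mouse and the study's methods give hashtag 3. Hashtag 2 is a G12V mouse in both. Under the deposited pairing 0 of the 9 factors differed at least 2-fold from the D38A mouse in the same direction in both G12V mice. Under the pairing of the methods 1 did, Nr1i3, with 6.14 (4.76 to 7.79) and 4.18 (3.65 to 4.75) CPM in the G12V mice and 24.6 (13.8 to 40.6) in the D38A mouse, from 15 UMIs in 25 cells. Nr1i3 also fell with depth within the baseline class, and the mice were not matched for depth here. No share of all genes at that limit was computed, so that both counts are no result about the factors. The contrasts between Nras classes were made within mice as called and do not use the pairing, and genotype and mouse cannot be told apart. What the classes stand for does depend on it. Under the deposited pairing hashtag 1, 1 of the 2 mice that carry these contrasts, is the D38A mouse. Its Nras classes would then be doses of NRAS(G12V/D38A) and not of NRAS(G12V). Among the ERK genes, Fosl1 went from 2.84 CPM in baseline to 36.2 in high cells of hashtag 1, and from 3.6 to 34.1 in hashtag 2. Etv4 went from 5.67 to 23 and from 4.17 to 21.5, and Spry2 from 5.36 to 20.6 and from 5.86 to 20.6. Spry4 was lower in high cells of hashtag 1, and Phlda1 and Egr1 in those of hashtag 2. Which pairing is right was not tested.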

How the data were processed

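The authors made 10x Genomics 3′ v3 libraries from sorted, hashtagged liver cells and deposited raw UMI counts per gene and barcode, aligned to mm10 with Cell Ranger, version 2.1.1 in the submitters' processing notes and 3.0.2 in the matrix header. The hashtag counts they deposited came from CITE-seq-Count without mismatches, and 13139 barcodes were in both tables. The gene table held 142072118 UMIs. The loading lanes share 1 barcode suffix, so that barcodes common to both could not be counted.

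Mice were called with HTODemux (Seurat 5.3.0, quantile 0.99). Of deep hepatocytes, 88 were hashtag doublets, left out of tests but not of values pooled over mice, and doublets within a mouse stay. UMIs, without Nras and mVenus, were summed per hashtag and class (at least 5 cells) and tested with edgeR 4.0.16 (TMM, filterByExpr, glmQLFit, glmQLFTest, 3 residual degrees of freedom, threshold 0.05), with DESeq2 1.42.0 as an alternative. The pairing comes from the design, as the sums of a hashtag are cells called for the same mouse. Which cells these are depends on the calling rule. Other cell types needed at least 1000 UMIs, 3 detected markers, 0.2% of UMIs from their list and 2 times the share of the next list, limits set after seeing the data. The script was tested on simulated counts. All 9 factors were named, at most 5 genes per list with the largest change past the threshold, and Hhex as a value, and some genes the rule would name are not reported here. The 9 factors and all lists were chosen with earlier results of these data known, and the test of slopes, sums of at least 1 cell and the removal without the bile duct list were added after seeing the data.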

Additional observations from a re-analysis of the deposited data

Results flagged for a closer look

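Barcodes with 10000 or more UMIs that missed the hepatocyte gate were outside every comparison. Of these, 35 held 1000 or more Nras CPM, with mVenus at 474 CPM and a median of 37391 UMIs, and 530 were at baseline Nras, with mVenus at 5.42 and a median of 12125 UMIs. They stand here because 5 factors were higher in the 35 than in the 530, with counting intervals apart. Over all 10595 genes tested elsewhere 32.9% were higher and 12.4% lower by the same measure, and the groups differed in depth, so that the count is no result about the factors. Hnf4a stood at 67.3 (54.7 to 81.9) against 22.6 (19.3 to 26.3) CPM, Foxa2 at 39.4 (29.9 to 51) against 10.4 (8.24 to 13) and Foxa3 at 25.8 (18.3 to 35.5) against 11 (8.72 to 13.6). Cebpb stood at 328 (299.7 to 359) against 107 (99.4 to 114) and Prox1 at 34.7 (25.8 to 45.6) against 14.8 (12.1 to 17.8). Cebpa, at 41.5 (31.7 to 53.3) against 36.9 (32.6 to 41.5), and Nr1h4, at 6.8 (3.26 to 12.5) against 10.7 (8.48 to 13.3), were not apart, while Nr1i3 was lower in the 35, at 0 (0 to 2.51) against 5.42 (3.87 to 7.38). Ppara, at 1.36 (0.165 to 4.91) against 6.1 (4.45 to 8.16), was not apart. Inside the gate, pooled over mice, intermediate and high cells held Hnf4a at 112 (105 to 118) and 114 (107 to 122). Foxa3 stood there at 79 (73.7 to 84.6) and 74.2 (68.2 to 80.7), and Prox1 at 55.8 (51.3 to 60.5) and 53.1 (48 to 58.6). The 35 were lower in these and in Ppara, and higher in Cebpb, with intervals apart from both classes. No share of all genes was computed for this, and the part of the gate in the class results was not tested. In 42 further barcodes below the gate with low Nras, Foxa2 stood at 57.6 (42.9 to 75.7), Foxa3 at 51.9 (38 to 69.3) and Hnf4a at 71.1 (54.7 to 91). Cebpb stood at 283, Prox1 at 44 (31.3 to 60.2), Nr1h4 at 22.6 (13.8 to 34.9) and Cebpa at 55.3 (40.9 to 73.1) in these 42. The counting intervals lay above those of the 530 for each of these but Cebpa. Nr1i3, at 2.26 (0.273 to 8.16), and Ppara, at 9.03 (3.9 to 17.8), were not apart from the 530 either. No share of all genes was computed for the 42, so that they too give no result about the factors. The gate genes had a median share of 0.495% in the 35 and 0.242% in the 530, and no test over mice was made of these barcodes.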

How the results depend on the processing

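The falls of Cebpa and Nr1h4 in high cells kept direction and call in 19 of 19 alternatives with a test. That of Nr1i3 kept them in 15 of 15 and that of Ppara in 18 of 19. Nr1i3 thus had fewer tests, and none after thinning or without cells over 0.5% of other markers. The log2 fold changes of Cebpa, Nr1h4, Nr1i3 and Ppara ranged from -1.898 to -0.956, -3.009 to -1.321, -8.508 to -3.081 and -2.47 to -0.946. For Nr1h4 the ends were reached without hashtag 2 and without other-marker cells, and for Nr1i3 with limits of 500, 1500 and 5000 and with classes by mVenus. Counts of genes moved more. Those called in high against baseline cells were 2701, and were 1431 with DESeq2, 1539 with class limits of 500, 1500 and 5000, 1223 after thinning, 435 without cells over 0.5% of other markers, and 487 to 2706 with 1 hashtag left out (837 without hashtag 1, 487 without hashtag 2). In low against baseline cells 617 genes became 286 with DESeq2, 1101 with no filter, 341 with limits of 200, 600 and 2000, 975 with 500, 1500 and 5000, 339 after thinning, 36 without cells over 0.5% of other markers and 50 to 615 with 1 hashtag left out (116 without hashtag 1, 50 without hashtag 2). From low to intermediate 122 became 576 with no filter, 1 with limits of 500, 1500 and 5000, 23 after thinning, 201 with a fixed rule for hashtag calls, 1 without cells over 0.5% of other markers and 27 to 123 with 1 hashtag left out (47 without hashtag 1, 27 without hashtag 2). From intermediate to high 1 became 2 with library size scaling, 19 with DESeq2, 215 with no filter, 26 with limits of 200, 600 and 2000, 42 after thinning, 7 with the fixed hashtag rule, 38 with sums of at least 1 cell and 1 to 29 with 1 hashtag left out (22 without hashtag 1, 29 without hashtag 2). Hepatocytes against other types gave 3537 and 1590 to 6012 with 1 hashtag left out (1590, 2096 and 6012 without hashtags 1, 2 and 3). Without the replicate block the counts were 2145, 273, 0 and 0 for the 4 class contrasts, with 841 and 399 genes at an unadjusted p under 0.05 in the last 2 and 108 and 19 called by DESeq2 with the block, and 3761 for cell types. It changed no other call of a factor than those given in the text. The factors at least 2-fold apart between genotypes numbered 0 or 1 by pairing, counts without a share of all genes beside them.

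Prox1 passed in high cells with no filter, with limits of 200, 600 and 2000, at 20000 or more UMIs and with the fixed hashtag rule, and Cebpb with no filter and after thinning. Uncalled values near 0 changed sign. Foxa3, 0.00 in high against baseline cells, was -0.003 with DESeq2, -0.032 with no filter, -0.017 without the block, -0.113 with limits of 500, 1500 and 5000, -0.035 at 20000 or more UMIs, -0.003 under 20% mitochondrial, -0.012 after thinning, -0.121 with the fixed hashtag rule, -0.008 without other-marker cells by the sum without bile duct genes, -0.114 with sums of at least 1 cell and -0.591 to 0.074 with 1 hashtag left out, and its largest move was to 0.676 without other-marker cells (edgeR adjusted p = 0.0968), where 1 factor was higher at an unadjusted p under 0.05. Hnf4a was -0.013 with no filter, -0.022 at 20000 or more UMIs, -0.004 with the fixed hashtag rule, -0.182 without other-marker cells and -0.124 to 0.399 with 1 hashtag left out. Nr1h4 from intermediate to high was 0.312 with limits of 500, 1500 and 5000 and 0.095 without other-marker cells. Nr1i3 between hepatocytes and other types was 0.792 with hepatocytes of at least 1000 UMIs and -0.631 to 0.367 with 1 hashtag left out. No filter moved the median of all genes to -0.211, and the cause of these shifts was not tested.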
